A study of Mus musculus with 6 samples.

Results

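The genes described here are 10 broad and inflammatory macrophage genes, chosen by symbol: Adgre1, Cd68, Csf1r, Csf1, Lyz2, Ly6c2, Trem2, Gpnmb, Arg1 and Nos2. They are 10 of 53819 genes listed in the count table, of which 30758 were counted in 1 library or more and 17496 passed edgeR's filter on low counts, and all 10 members were among those tested. RNA was sequenced from whole healing flexor digitorum longus (FDL) tendons, a tendon of the mouse hind paw, with 1 tendon per library and 3 mice per genotype. The mice were 10 to 12 weeks old at surgery, when the FDL tendon was cut through and sutured, and the tendons were taken at day 28 (D28) after surgery by the methods, whereas the sample titles give day 28 as a time after depletion.

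DTR-ScxLin mice were Scx-Cre+; DTR F/+, so that the Scx promoter drove Cre, Cre removed a stop cassette at the Rosa locus, and the diphtheria toxin receptor was made in cells of the Scleraxis lineage (ScxLin), the main cell population of tendon. WT controls were littermates of genotype Scx-Cre-; DTR F/+ and carried the same floxed receptor allele without Cre. Both groups received diphtheria toxin daily from day 14 to day 18, at 100 ng per injection. The constitutive Cre marks any cell whose ancestors expressed Scx, and the libraries hold RNA of every cell type in the tendon, so fewer macrophages and less RNA per macrophage cannot be told apart.

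Macrophages clear debris from a healing tendon and signal to the fibroblasts that deposit matrix. They arise from circulating Ly6C-high monocytes or from resident cells. Many of them depend on the receptor tyrosine kinase CSF1R, which binds the ligands CSF1 and IL34. Cells that respond to bacterial products and interferon-gamma raise inducible nitric oxide synthase (Nos2), and cells that respond to interleukin 4 raise arginase 1 (Arg1), so that both enzymes draw on the same substrate, arginine.

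No difference was detected between the genotypes for any of the 10 genes at D28. Of the 10 members, 0 had an adjusted p under 0.05 in edgeR's quasi-likelihood test, where 0% of all tested genes did, and 0 had an unadjusted p under 0.05, where 5.52% of all tested genes were higher and 5.45% lower in DTR-ScxLin. DESeq2 also called 0 of the 10, with 2.65% of all genes with an adjusted p called. The fitted log2 fold change was above 0 for 6 members and below 0 for 4, with a median of 0.11, beside 0.0082 over all tested genes, and ran from -0.51 for Ly6c2 to 0.27 for Arg1. The smallest edgeR adjusted p over all 17496 genes was 0.199, so this test called no gene in the table.

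Libraries held 42744138 to 48854310 counts, and some stood apart in other transcripts. A list of 20 skeletal muscle genes took 2.05% to 2.84% of the counts of the WT libraries, but 0.352%, 2.49% and 0.665% of DTR-ScxLin replicates 1 to 3. A list of 12 neutrophil genes summed to 14076 normalized counts in DTR-ScxLin replicate 1 and to 652 to 2796 in the other 5 libraries, while the defining neutrophil gene Ly6g held at most 4.1 in any library. A keratinocyte list of 12 genes summed to 135268 and 81691 in WT replicates 1 and 2 and to 609 to 12795 elsewhere. The X-inactivation transcript Xist was at 46306 to 55260 normalized counts in WT replicate 2 and DTR-ScxLin replicates 2 and 3 and at most 4.1 in the others, so the groups differed in sex makeup. Scx, whose lineage the toxin targets, held 2198, 2696 and 3031 normalized counts in WT against 3456, 3388 and 3512 in DTR-ScxLin tendons (log2 fold change 0.39, SE 0.12, edgeR adjusted p = 0.371). Every library labelled DTR-ScxLin lay above every WT library, where 8.98% of all tested genes did, so no loss of Scx was seen at D28. Scx was read as a tendon marker, outside the rule for named genes. Scx therefore does not check the genotype labels, and DTR-ScxLin names the libraries by their labels throughout. All 20 genes of a general macrophage list passed the filter.

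Lyz2 encodes lysozyme M, the enzyme of myeloid granules and lysosomes that breaks bacterial cell walls, and has a close paralog, Lyz1, best known from Paneth cells of the gut. Since the readings of Lyz2 and Lyz1 parted between the groups, the first 90 coding bases of both are shown here, as given by the GENCODE vM21 annotation of GRCm38, with capitals at the bases that differ between them.
Lyz2: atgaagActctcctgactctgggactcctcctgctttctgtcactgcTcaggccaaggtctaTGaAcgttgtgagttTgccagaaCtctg
Lyz1: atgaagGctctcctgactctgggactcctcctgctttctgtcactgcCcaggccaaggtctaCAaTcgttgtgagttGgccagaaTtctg
The stretch holds 7 differences, and 422 of the 444 coding bases were identical. Of all windows of 50 bases in the Lyz2 transcript, 15.4% were also in a Lyz1 transcript, and of windows of 100 bases 1.97%. Reads that fit both genes make the split between them uncertain, since the setting for such reads is not given in the sources used here.

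A second pair needs the same caution. Ly6c2 encodes the surface antigen that marks freshly recruited monocytes, and its neighbour in the family, Ly6c1, is abundant in endothelial cells. The first 90 coding bases of both are shown with capitals where they differ.
Ly6c2: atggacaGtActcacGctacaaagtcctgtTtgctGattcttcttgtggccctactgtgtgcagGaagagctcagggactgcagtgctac
Ly6c1: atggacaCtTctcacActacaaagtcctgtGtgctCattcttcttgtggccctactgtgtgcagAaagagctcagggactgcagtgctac
Here 6 bases differed in the stretch and 384 of 393 coding bases were identical (97.7%), and 32.6% of the 50-base windows of the Ly6c2 transcript were also in a Ly6c1 transcript. Ly6c2 took only 0.336% to 1.68% of the counts of the pair in the WT libraries and 0.549% to 1.02% in the DTR-ScxLin libraries, so a small share of Ly6c1 reads given to the wrong gene would weigh heavily on Ly6c2.

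**Figure D1:**
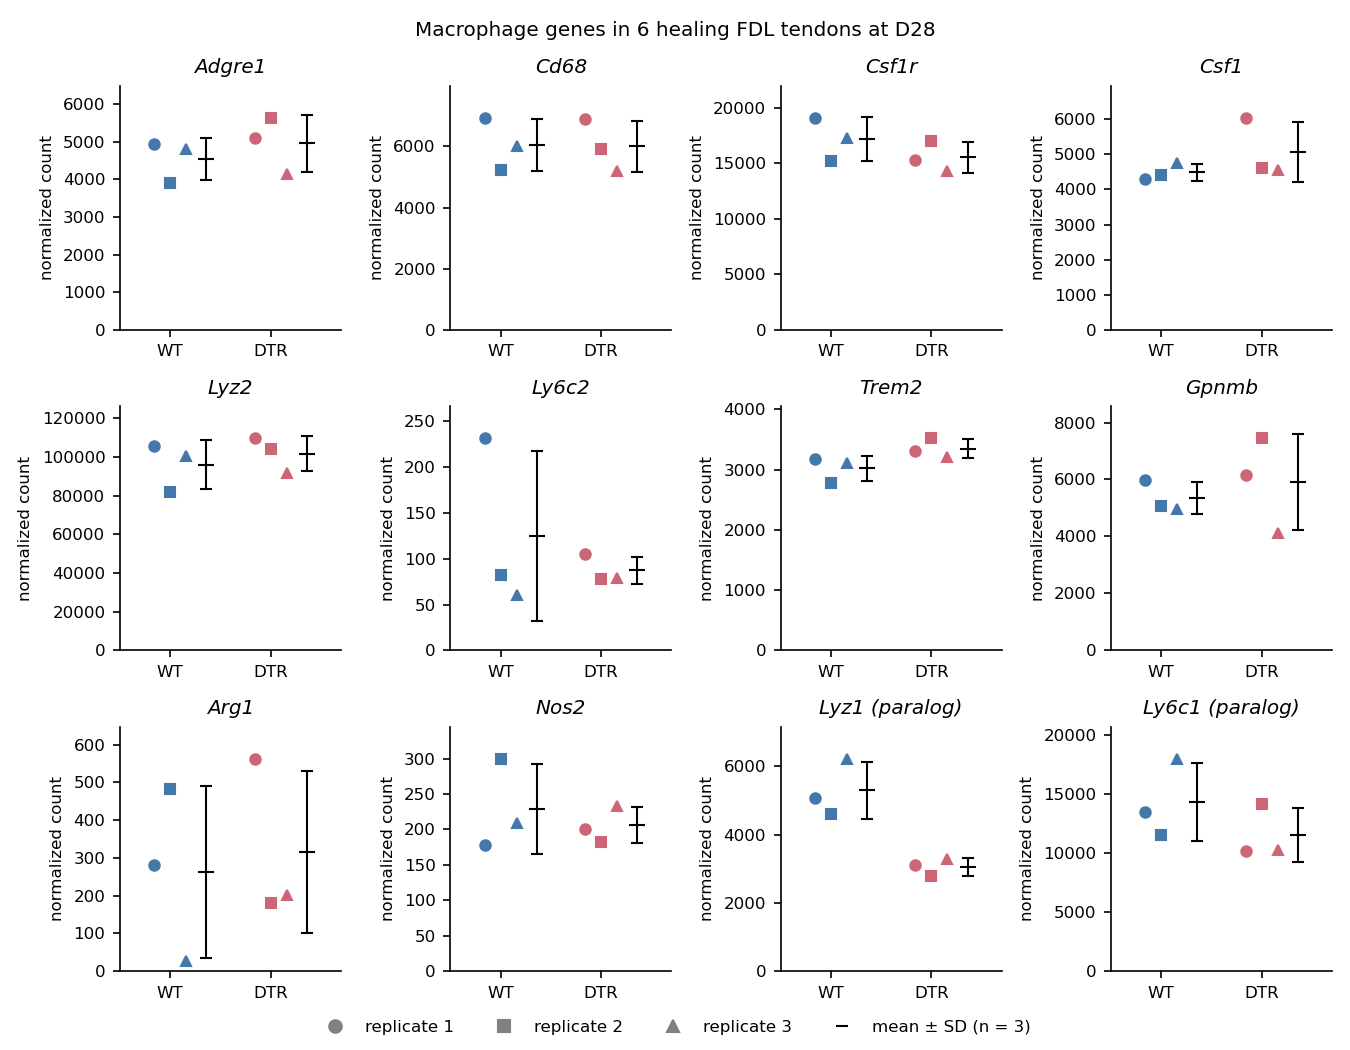
Normalized counts of the 10 members and the paralogs Lyz1 and Ly6c1 in each of 3 WT (blue) and 3 DTR-ScxLin (red) libraries, with bars for the mean ± SD and the marker shape for the replicate number. The groups overlap in 9 of the 10 members, and Lyz1 sits lower in every DTR-ScxLin library.

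The pan-macrophage genes come first. Normalized counts are the deposited counts divided by 1 size factor per library, and values are given for WT replicates 1 to 3 and then DTR-ScxLin replicates 1 to 3. Adgre1, which encodes the adhesion receptor F4/80 found on most mouse macrophages, held 4938, 3892 and 4793 normalized counts in WT against 5101, 5634 and 4141 in DTR-ScxLin tendons. The means of 4541 ± 567 and 4959 ± 757 (SD, n = 3 each) gave a log2 fold change of 0.13 (SE 0.14, 95% interval -0.20 to 0.45, edgeR adjusted p = 0.756), which was 0.027 without WT replicate 2 and 0.028 without DTR-ScxLin replicate 2. Both the lowest library, WT replicate 2, and the highest, DTR-ScxLin replicate 2, lay within 1.45-fold of each other.

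Cd68, a lysosomal glycoprotein of macrophages, held 6937, 5241 and 6006 normalized counts in WT against 6882, 5908 and 5206 in DTR-ScxLin tendons. Its means of 6061 ± 849 and 5999 ± 842 (SD, n = 3 each) were the closest of any member, with a log2 fold change of -0.014 (95% interval -0.34 to 0.31, edgeR adjusted p = 0.979). Replicate 1 was the highest library in both groups, and the groups overlapped.

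Lyz2 held 105988, 81788 and 100650 normalized counts in WT against 109740, 103989 and 91795 in DTR-ScxLin tendons. Its log2 fold change came to 0.084 (SE 0.16, 95% interval -0.28 to 0.45, edgeR adjusted p = 0.875), and a fold between 0.825 and 1.36 lay within that interval. For Adgre1, Cd68 and Lyz2 alike, the depth was ample and the spread between mice set the width of the interval.

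Per kilobase of the longest protein-coding transcript, the WT level of Lyz2 was 73056 ± 9661 normalized counts (SD, n = 3), far above Cd68 at 4928 ± 691 and Csf1r at 3650 ± 416. Below these came Trem2 at 2775 ± 194, Gpnmb at 1445 ± 153, Adgre1 at 1402 ± 175 and Csf1 at 1074 ± 58.3. Gpnmb and Adgre1 differed by less than their SD. At the foot of the order stood Arg1 at 178 ± 155, Ly6c2 at 151 ± 113 and Nos2 at 54.5 ± 15.1, which could not be ordered beyond their spread. Several places depend on the length used. Per kilobase of the union of a gene's exons, Adgre1 at 1402 normalized counts stood above Csf1 at 850, Gpnmb at 821 and Trem2 at 611, and Nos2 at 51.8 above Ly6c2 at 45.4.

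Neither the receptor nor its ligands passed the test. Csf1r held 19073, 15161 and 17239 normalized counts in WT against 15306, 17001 and 14248 in DTR-ScxLin tendons, with a log2 fold change of -0.14 (SE 0.12, 95% interval -0.43 to 0.14, edgeR adjusted p = 0.677). Csf1, the ligand made by fibroblasts and other stromal cells, held 4293, 4408 and 4760 normalized counts in WT against 6042, 4607 and 4555 in DTR-ScxLin tendons. Its log2 fold change of 0.18 (SE 0.13, 95% interval -0.11 to 0.47, edgeR adjusted p = 0.611) rested on DTR-ScxLin replicate 1, and without that library it was 0.027. With the share of muscle transcripts as a covariate it was -0.024.

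Il34, the second ligand of the receptor, held 530, 715 and 743 normalized counts in WT against 500, 538 and 525 in DTR-ScxLin tendons (log2 fold change -0.35, SE 0.15, edgeR adjusted p = 0.459). The ranges met only at WT replicate 1, which lay inside the DTR-ScxLin values. Within each library the counts of Csf1 were 8.10, 6.17 and 6.40 times those of Il34 in WT against 12.1, 8.57 and 8.67 times in DTR-ScxLin tendons. The ratio did not overlap between the groups, but how often the ratios of other gene pairs do the same was not computed.

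The ratio of Csf1r to Adgre1 did not overlap either. It was 3.86, 3.90 and 3.60 in WT against 3.00, 3.02 and 3.44 in DTR-ScxLin tendons. Among the other 8 members, 0 had a ratio to Adgre1 that was above or below in every DTR-ScxLin library, while over all tested genes 8.31% were below and 1.5% above. These ratios were chosen after the values were seen and get no test, and with 3 against 3 libraries an exact permutation test cannot go below p = 0.1.

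**Figure D2:**
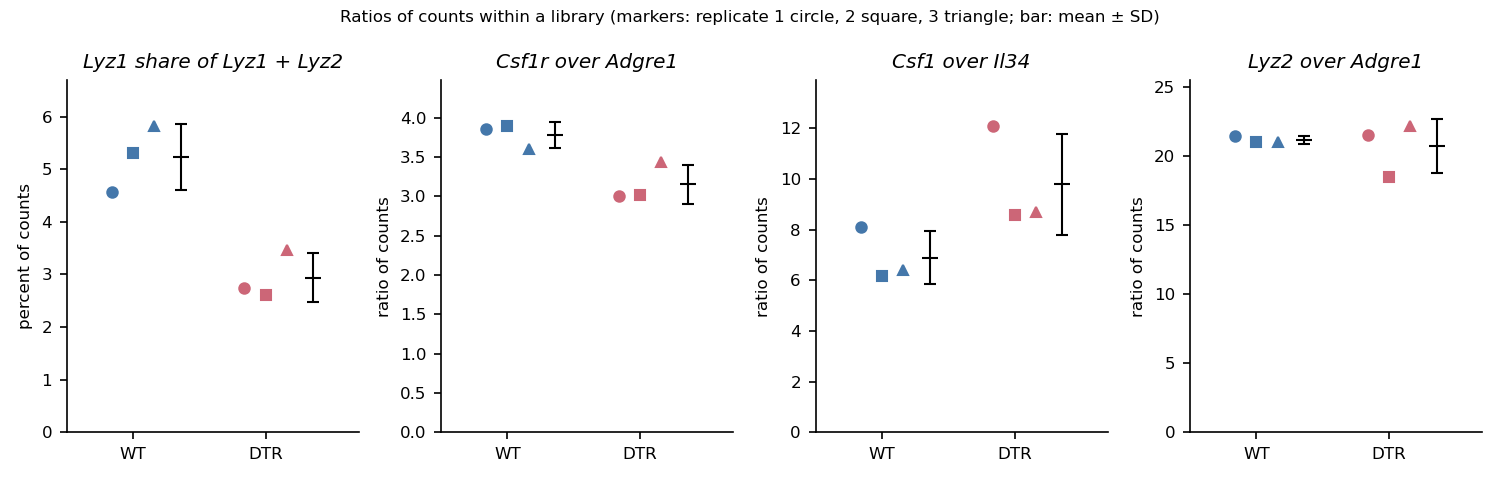
Ratios of counts within each library for Lyz1 as a percent of Lyz1 and Lyz2 together, Csf1r over Adgre1, Csf1 over Il34 and Lyz2 over Adgre1, with 3 WT (blue) and 3 DTR-ScxLin (red) libraries and the mean ± SD. The first 3 ratios do not overlap between groups, and Lyz2 over Adgre1 lies between 18.5 and 22.2 in every library. How often the ratios of other gene pairs part was computed only for ratios to Adgre1.

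Of 8 tested genes of the CSF1 receptor axis list besides the members, 0 had an unadjusted p under 0.05 in edgeR. Over all tested genes, 5.52% were higher and 5.45% lower at that p. In every DTR-ScxLin library 0 of the 8 lay above or below, where 8.98% and 7.86% of all tested genes did. The list's median log2 fold change was -0.019. The list also holds receptor genes of other growth factors, Csf2ra and Csf3r among them, so its counts and median are not of CSF1R signalling alone. Csf2ra, a subunit of the GM-CSF receptor, had a log2 fold change of 0.10 (edgeR adjusted p = 0.813), and Irf8, a transcription factor of the monocyte lineage, one of -0.16 (edgeR adjusted p = 0.734). Csf3r, the receptor for the granulocyte growth factor G-CSF, had the highest, 0.83 (edgeR adjusted p = 0.611). It held 2245 normalized counts in DTR-ScxLin replicate 1, the library high in neutrophil genes, and 536 to 825 in the other 5.

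Of 20 tested genes of the general macrophage list, 1 had an unadjusted edgeR p under 0.05 and was higher, and 0 were lower. Over all tested genes, 5.52% were higher and 5.45% lower at that p. Above in every DTR-ScxLin library were 2 of the 20, where 8.98% of all tested genes were. Below in every DTR-ScxLin library were 0, where 7.86% were. The median log2 fold change was 0.069, and the summed level ran from 128541 to 166169 normalized counts in WT and from 132185 to 164096 in DTR-ScxLin tendons. Msr1, a scavenger receptor for modified lipoprotein, was the 1 gene, at 1773 ± 194 and 2383 ± 149 normalized counts (SD, n = 3 each), with a log2 fold change of 0.43 (SE 0.10, edgeR adjusted p = 0.300).

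Itgam, the integrin CD11b, was the other gene above in every library and was picked after its values were seen, with 1222 ± 97.2 and 1392 ± 178 normalized counts (SD, n = 3 each). Tyrobp, the adaptor through which TREM2 signals, had a log2 fold change of 0.14 (edgeR adjusted p = 0.750) and of 0.0015 without DTR-ScxLin replicate 1. Cd14, the co-receptor for endotoxin, had 0.31 (edgeR adjusted p = 0.604) and 0.034 without DTR-ScxLin replicate 1. The complement component C1qc had -0.052 (edgeR adjusted p = 0.887) and the lysosomal protein Laptm5 -0.073 (edgeR adjusted p = 0.869).

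Lyz1 had another pattern than Lyz2. It held 5066, 4591 and 6220 normalized counts in WT against 3095, 2781 and 3296 in DTR-ScxLin tendons, so every DTR-ScxLin library lay below every WT library. The means were 5292 ± 838 and 3057 ± 260 (SD, n = 3 each), with a log2 fold change of -0.79 (SE 0.13, 95% interval -1.10 to -0.49). The edgeR adjusted p was 0.251, whereas DESeq2 gave an adjusted p of 4.87e-05, and over the alternatives tried the adjusted p ran from 4.87e-05 to 0.701.

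As a percent of the counts of both lysozyme genes, Lyz1 made up 4.56, 5.31 and 5.82 in WT against 2.74, 2.60 and 3.47 in DTR-ScxLin tendons. This percent was taken after the values were seen, and how often other gene pairs part in this way was not computed. The log2 fold change of Lyz1 was -0.93 with the muscle share as a covariate and -0.73 with sex as a covariate. It lay between -0.89 and -0.66 when any 1 library was left out.

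The promoters of the lysozyme genes are also alike near the start site, and are shown because the counts of the genes parted. The last 100 bases before each start are from RefSeq on GRCm38.p6, minus strand, chr10:117282273-117282372 for Lyz2 and chr10:117292869-117292968 for Lyz1, with capitals at the bases that differ.
Lyz2 promoter: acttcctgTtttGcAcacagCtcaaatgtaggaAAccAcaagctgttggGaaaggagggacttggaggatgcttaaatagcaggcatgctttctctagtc
Lyz1 promoter: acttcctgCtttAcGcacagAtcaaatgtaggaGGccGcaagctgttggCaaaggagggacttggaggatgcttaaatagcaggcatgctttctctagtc
In this stretch 92 of 100 bases were identical, and over the 250 bases before the start 200 of 252 aligned positions were (79.4%). The letters GAGGAA, searched on both strands as the core bound by the myeloid factor PU.1, occurred in the 300-base promoter windows of Cd68, Ly6c2 and Trem2, 3 of the 6 members with an entry, and in 28.3% of 32851 promoters. Promoters of Adgre1, Arg1, Csf1r and Nos2 were not used here.

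**Figure D3:**
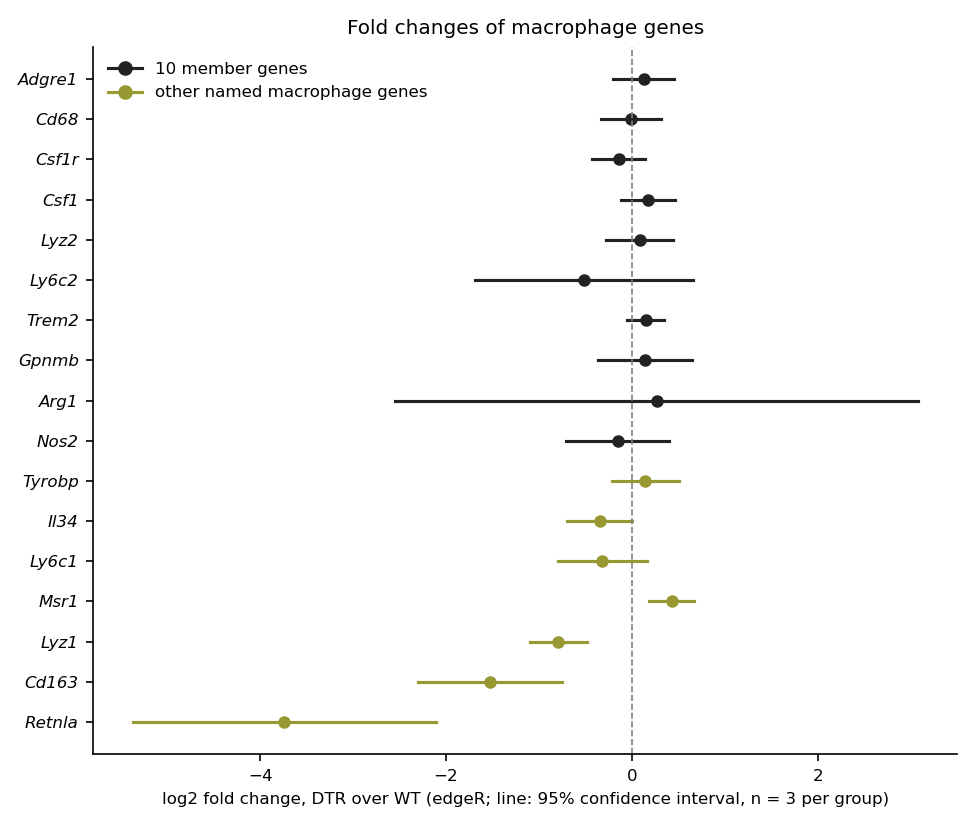
Fitted edgeR log2 fold changes, DTR-ScxLin over WT (point), with 95% confidence intervals (line), n = 3 per group. The 10 members are in black and 7 other named genes, among them Il34 and Ly6c1, in olive. The interval of every member holds 0, Arg1 has the widest (-2.54 to 3.08), and those of Msr1, Lyz1, Cd163 and Retnla do not hold 0 before adjustment for the number of genes.

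Trem2 and Gpnmb are genes of lipid-laden and debris-clearing macrophages. Trem2 encodes a receptor for lipids and apolipoproteins, and held 3173, 2778 and 3107 normalized counts in WT against 3306, 3518 and 3214 in DTR-ScxLin tendons. It was the only member whose groups did not overlap, 1 of 10 above, where 8.98% of all tested genes were, and the highest WT and lowest DTR-ScxLin libraries were 3173 and 3214. The means of 3020 ± 212 and 3346 ± 156 (SD, n = 3 each) gave a log2 fold change of 0.15 (SE 0.086, 95% interval -0.052 to 0.35, edgeR adjusted p = 0.536), the smallest adjusted p of any member.

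Gpnmb, a transmembrane glycoprotein of lysosome-rich macrophages and osteoclasts, held 5999, 5070 and 4975 normalized counts in WT against 6147, 7446 and 4115 in DTR-ScxLin tendons. Both the highest and the lowest of the 6 libraries were DTR-ScxLin, and the log2 fold change was 0.14 (SE 0.21, 95% interval -0.36 to 0.65, edgeR adjusted p = 0.833). It was -0.057 without DTR-ScxLin replicate 2, the highest library, and 0.35 without DTR-ScxLin replicate 3, the lowest. Gpnmb is also made by osteoclasts and melanocytes, and the summed levels of those lists overlapped between groups, from 56913 to 67148 against 62356 to 88123 normalized counts for 10 osteoclast genes and from 349 to 552 against 201 to 520 for 6 melanocyte genes. The osteoclast sum is mostly Ctsk, at 52183 and 59797 normalized counts on average. Of 9 tested osteoclast genes, 7 were fitted higher and 2 lower, with a median log2 fold change of 0.56. In DTR-ScxLin replicate 1 Acp5 held 4061 normalized counts and Dcstamp 78.9, against 951 to 1793 and 11.3 to 22.3 in the other libraries. Nfatc1 and Tnfrsf11a, the 2 fitted lower, were highest in WT replicate 1. At an unadjusted edgeR p under 0.05, where 5.52% of all tested genes were higher, 1 of the 9 was higher. That gene, Ocstamp, a membrane protein of osteoclast fusion picked after its values were seen, held 30.4, 18.8 and 18.5 normalized counts in WT against 140, 37.1 and 39.8 in DTR-ScxLin tendons (log2 fold change 1.68, edgeR adjusted p = 0.405). The part of osteoclasts in the Gpnmb values was not tested.

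The median log2 fold change of 22 other lysosome and lipid genes tested was 0.078. At an unadjusted edgeR p under 0.05, 5.52% of all tested genes were higher and 5.45% lower. Of these 22, 0 were higher and 1 was lower. That gene, Tfeb, a master regulator of lysosome genes, held 1266 ± 24.4 and 1029 ± 157 normalized counts (SD, n = 3 each; log2 fold change -0.30, edgeR adjusted p = 0.447). Lipa, lysosomal acid lipase, picked after its values were seen, lay above in every DTR-ScxLin library, at 4965 ± 422 and 5869 ± 574 normalized counts (SD, n = 3 each). Spp1, which encodes osteopontin, had a log2 fold change of 0.57 (edgeR adjusted p = 0.583) and held 218556 normalized counts in DTR-ScxLin replicate 1 and 69472 to 108792 in the others, and without that library the log2 fold change was 0.071. Atp6v0d2, a proton pump subunit of osteoclasts and macrophages, had 0.56 (edgeR adjusted p = 0.553), or 0.15 without that library, where it was likewise highest, whereas Fabp5, a fatty acid binding protein also abundant in keratinocytes, had -0.34 (edgeR adjusted p = 0.848).

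Ly6c2 was scarce. It had 228, 87 and 59 counts in WT against 102, 82 and 77 in DTR-ScxLin tendons, or 231, 81.7 and 60.7 against 105, 78.0 and 78.7 normalized counts. WT replicate 1 alone stood high, and the log2 fold change of -0.51 (SE 0.50, 95% interval -1.68 to 0.66, edgeR adjusted p = 0.719) became 0.29 without it. The monocyte genes Plac8, at 670 normalized counts, and Chil3, at 115, were also highest in that library, with 193 to 419 and 27.8 to 94.3 in the other 5.

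Ly6c1, its paralog, had 13483, 11536 and 17993 normalized counts in WT against 10140, 14138 and 10252 in DTR-ScxLin tendons (log2 fold change -0.32, edgeR adjusted p = 0.577). Ccr2, the chemokine receptor through which monocytes leave the bone marrow, was read at far higher counts than Ly6c2, at 7270 ± 1590 and 6964 ± 346 normalized counts (SD, n = 3 each; log2 fold change -0.061, edgeR adjusted p = 0.914).

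Of 20 tested genes of a monocyte and inflammatory list, 3 were higher and 0 lower at an unadjusted edgeR p under 0.05. Over all tested genes, 5.52% were higher and 5.45% lower at that p. The 3 genes of the list, Tnf, Ptgs2 and Cxcl2, were also above in every DTR-ScxLin library, where 8.98% of all tested genes were. The median log2 fold change of the list was 0.52. Cxcl2, a neutrophil-attracting chemokine, held 89.2, 86.4 and 44.2 normalized counts in WT against 1514, 194 and 145 in DTR-ScxLin tendons (log2 fold change 3.07, SE 1.14, edgeR adjusted p = 0.452). Tnf and Ptgs2, the inducible cyclooxygenase, fell outside the rule for named genes and were picked after their values were seen.

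Tnf held 80.4 ± 11.6 and 131 ± 28.7 normalized counts (SD, n = 3 each; log2 fold change 0.70, edgeR adjusted p = 0.419). Ptgs2 held 311, 156 and 113 in WT against 1014, 513 and 471 in DTR-ScxLin tendons (log2 fold change 1.79, SE 0.49, edgeR adjusted p = 0.354), and DESeq2 called it with an adjusted p of 0.000415 (0.000415 to 0.838 over the alternatives). DTR-ScxLin replicate 1 was the highest library for all 3 genes, and S100a9, a calcium-binding protein abundant in neutrophils, was at 5402 normalized counts there and at 143 to 778 in the others (log2 fold change 2.45, edgeR adjusted p = 0.544). Without that library the log2 fold change was 1.21 for Cxcl2, 1.35 for Ptgs2, 0.51 for Tnf and 0.45 for S100a9. The part of neutrophils in these values was not tested.

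**Figure D4:**
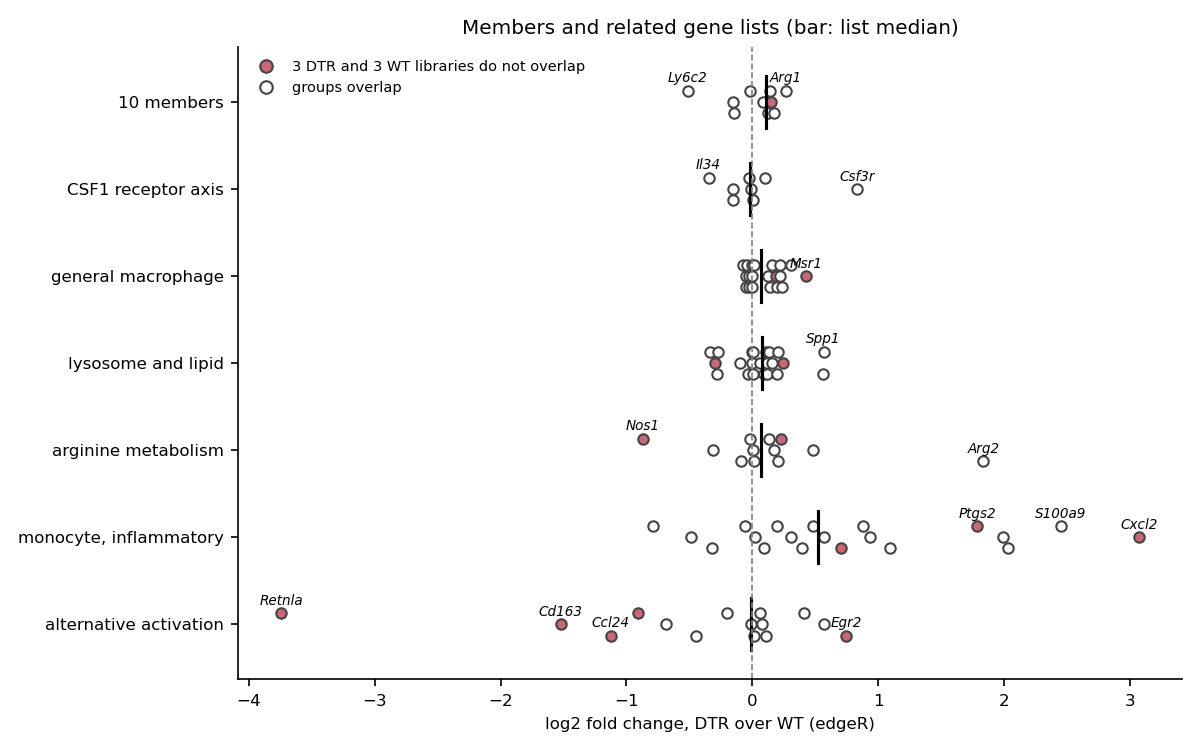
Fitted edgeR log2 fold changes, DTR-ScxLin over WT, of the 10 members and of the tested genes in 6 related lists, with 1 point per gene, filled where the 3 libraries of one group do not overlap those of the other, and a bar at each list's median. The members and the general macrophage genes lie close to 0, the inflammatory list reaches 3.07 at Cxcl2, and the alternative activation list reaches -3.74 at Retnla.

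Arg1 and Nos2, the arginine-using pair, were both scarce. Arg1 held 281, 482 and 25.7 normalized counts in WT against 563, 181 and 202 in DTR-ScxLin tendons, a span of 21.9-fold between the lowest and the highest library. The log2 fold change of 0.27 had an SE of 1.08 and a 95% interval from -2.54 to 3.08 (edgeR adjusted p = 0.949), so that any fold from 0.171 to 8.43 lay within the interval. It was 1.04 without WT replicate 2, -0.27 without WT replicate 3 and -0.46 without DTR-ScxLin replicate 1, and -0.59 with the muscle share as a covariate.

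Nos2 was steadier, at 177, 300 and 209 normalized counts in WT against 201, 183 and 233 in DTR-ScxLin tendons (log2 fold change -0.15, SE 0.24, 95% interval -0.71 to 0.40, edgeR adjusted p = 0.842). WT replicates 1 and 2 were its lowest and highest libraries. The ratio of Arg1 to Nos2 counts was 1.58, 1.61 and 0.123 in WT against 2.80, 0.990 and 0.868 in DTR-ScxLin tendons and overlapped between the groups.

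The median log2 fold change of 12 other tested genes of arginine metabolism was 0.071. At an unadjusted edgeR p under 0.05, 5.52% of all tested genes were higher and 5.45% lower. Of these 12, 0 were higher and 1 was lower. Nos1, the neuronal and muscle nitric oxide synthase, was that gene, at 721, 988 and 690 normalized counts in WT against 372, 592 and 347 in DTR-ScxLin tendons (log2 fold change -0.87, SE 0.24, edgeR adjusted p = 0.347). DESeq2 called it with an adjusted p of 0.0182 (0.0182 to 0.838 over the alternatives). Its 2 lowest libraries were DTR-ScxLin replicates 1 and 3, which also held the smallest share of muscle transcripts. DTR-ScxLin replicate 2 held more muscle transcripts than WT replicate 3 (2.49% against 2.05% of counts) and less Nos1 (592 against 690). With the muscle share as a covariate the log2 fold change of Nos1 was -0.49. The part of muscle in the Nos1 values was not tested.

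Slc7a2, which carries arginine into cells, was above in every DTR-ScxLin library, at 5643 ± 479 and 6614 ± 775 normalized counts (SD, n = 3 each; log2 fold change 0.23, edgeR adjusted p = 0.488). Gatm, the first enzyme of creatine synthesis, had a log2 fold change of -0.31 (edgeR adjusted p = 0.492) and Ddah1, which degrades the nitric oxide synthase inhibitor dimethylarginine, 0.48 (edgeR adjusted p = 0.546). Arg2, the mitochondrial arginase, held 27.4, 21.6 and 7.2 normalized counts in WT against 181, 13.3 and 7.2 in DTR-ScxLin tendons, again with DTR-ScxLin replicate 1 alone high.

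The alternative activation list divided. It holds genes raised by interleukin 4, parts of its signalling such as Il4ra and Stat6, and genes such as Cd163 that glucocorticoids and interleukin 10 raise. Of its 15 tested genes, 1 was higher and 3 lower at an unadjusted edgeR p under 0.05. Over all tested genes, 5.52% were higher and 5.45% lower at that p. In every DTR-ScxLin library 1 of the 15 was above and 4 were below, where 8.98% and 7.86% of all tested genes were. The list's median log2 fold change was -0.011. Retnla, a secreted resistin-like protein, held 550, 392 and 390 normalized counts in WT against 26.6, 62.8 and 9.2 in DTR-ScxLin tendons (log2 fold change -3.74, SE 0.66, edgeR adjusted p = 0.274). DESeq2 called it with an adjusted p of 4.87e-05 (4.87e-05 to 0.821 over the alternatives). Cd163, the scavenger receptor for haemoglobin bound to haptoglobin, held 2509, 2707 and 2100 in WT against 487, 1117 and 939 in DTR-ScxLin tendons (log2 fold change -1.52, SE 0.31, edgeR adjusted p = 0.293).

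DESeq2 gave Cd163 an adjusted p of 2.7e-06 (2.7e-06 to 0.838 over the alternatives). Ccl24, an eosinophil-attracting chemokine picked after its values were seen, held 500 ± 108 and 229 ± 38.0 normalized counts (SD, n = 3 each; log2 fold change -1.12, edgeR adjusted p = 0.272), and DESeq2 called it with an adjusted p of 0.000176 (0.000176 to 0.701 over the alternatives). Mgl2, a C-type lectin picked in the same way, was also below in every library, at 1088 ± 66.4 and 580 ± 385 normalized counts (SD, n = 3 each). The 1 gene higher at an unadjusted edgeR p under 0.05 was Egr2, a transcription factor induced by interleukin 4. It held 367 ± 81.1 and 613 ± 54.0 normalized counts (SD, n = 3 each), with a log2 fold change of 0.74 (edgeR adjusted p = 0.300). DESeq2 gave an adjusted p of 0.0137 (0.0137 to 0.838 over the alternatives). Chil3, a chitinase-like protein, had a log2 fold change of 0.57 (edgeR adjusted p = 0.698).

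The members did not share 1 order of libraries. WT replicate 1 was the highest library for Cd68, Csf1r and Ly6c2, DTR-ScxLin replicate 1 for Csf1, Lyz2 and Arg1, DTR-ScxLin replicate 2 for Adgre1, Trem2 and Gpnmb, and WT replicate 2 for Nos2. The lowest library was WT replicate 2 for Adgre1, Lyz2 and Trem2, DTR-ScxLin replicate 3 for Cd68, Csf1r and Gpnmb, WT replicate 3 for Ly6c2 and Arg1, and WT replicate 1 for Csf1 and Nos2. Adgre1, Cd68, Csf1r, Csf1, Lyz2 and Trem2 varied at most 1.45-fold over the 6 libraries, Gpnmb and Nos2 1.81-fold and 1.69-fold, and Ly6c2 and Arg1 3.81-fold and 21.9-fold.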

How the data were processed

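Bulk RNA-seq libraries (200 ng total RNA, poly-A selected, single-end reads) of 3 WT and 3 DTR-ScxLin FDL tendons were used, grouped by the genotype in the labels. The labels name both the TruSeq Stranded mRNA and a SMARTER kit. The authors trimmed and checked the reads in FastP and assigned them to genes in featureCounts, and the deposited counts are whole numbers with no normalization. The aligner, genome build and strand setting are not given in the sources used here, so antisense and overlapping genes are uncertain. The deposited signal table holds normalized counts, each column being the counts divided by 1 DESeq2 size factor (DESeq2 1.22.1 per the submitters' processing notes).

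Counts were fitted in R 4.3.3 with edgeR 4.0.16 (filterByExpr, TMM, robust quasi-likelihood fit, genotype as the single term), with Benjamini-Hochberg adjustment over all 17496 tested genes and a threshold of 0.05. DESeq2 1.42.0 and limma 3.58.1 were alternatives. Libraries held 42744138 to 48854310 counts, and no replicate pair agreed within sampling noise, so n = 3 limits the precision. Replicate numbers did not pair the libraries. The members and gene lists were chosen with earlier results of these data known. Named genes were the 10 members, Lyz1, Ly6c1, Il34, Tyrobp and Arg2, and the 2 highest and 2 lowest log2 fold changes of each of 6 related lists among genes that averaged 50 normalized counts or more. The rule also took the most abundant gene of each other cell type's list, which stands among the closing observations. The ratios within libraries, and genes said to be picked after their values were seen, came later. Coding sequences were from GENCODE vM21 and promoters from RefSeq.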

Additional observations from a re-analysis of the deposited data

How the results depend on the processing

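Under 17 alternatives (6 of which left out 1 library) the number of members called stayed at 0, and the direction of the members' log2 fold changes was kept 159 times and turned 11 times. The number of genes called, 0 in each direction at the start, was 197 higher and 269 lower with DESeq2, 45 and 38 without a filter on low counts, and 0 to 103 higher and 0 to 441 lower when 1 library was left out, the counts above 0 coming without DTR-ScxLin replicate 2. The causes were not tested. The replicate numbers gave correlations of -0.188, -0.149 and -0.684 between same-numbered libraries, and a fit with the replicate block called 0 genes higher and 1 lower. With the muscle share as a covariate the log2 fold change turned to -0.024 for Csf1, -0.59 for Arg1, -0.86 for Arg2, -0.12 for Csf2ra, -0.056 for Csf3r, -0.084 for Ddah1 and 0.0037 for C1qc, and with sex as a covariate to 0.089 for Cd68 and 0.060 for Ccr2. With 1 library left out it ran from -0.13 to 0.092 for Cd68, from -0.84 to 0.29 for Ly6c2, from -0.021 to 0.16 for Lyz2, from -0.31 to 0.089 for Nos2, from -0.46 to 1.04 for Arg1 and from -0.057 to 0.35 for Gpnmb. Without turning, it ran from 0.027 (without WT replicate 2) to 0.24 for Adgre1, and without DTR-ScxLin replicate 1 it was 0.034 for Cd14, 0.071 for Spp1, 0.15 for Atp6v0d2 and 0.0015 for Tyrobp. Among the other named genes it ran from -0.29 to 0.048 for Irf8, from -0.16 to 0.053 for Laptm5, from -0.22 to 0.097 for Ccr2, from -0.69 to 0.23 for Fabp5, from -0.86 to 2.37 for Arg2, from -0.034 to 0.19 for Csf2ra and from -0.12 to 0.00096 for C1qc. The edgeR adjusted p of Lyz1, 0.251, was 0.00358 without a filter and 0.0437 without DTR-ScxLin replicate 2, and that of Ccl24, 0.272, was 0.0193 and 0.0404. Without DTR-ScxLin replicate 2, Retnla, Nos1 and Ddah1 also passed, with edgeR adjusted p of 0.0112, 0.0254 and 0.0306. The spread between mice, with 3 per group, set the precision.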

Other observations

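The most abundant gene of each list of another cell type is given here. Such a gene need not be made by that cell type alone, so its level does not measure those cells. In normalized counts, with the WT mean first and the DTR-ScxLin mean second, the fibroblast collagen Col3a1 was at 661989 and 963651 and the tendon matrix gene Thbs4 at 251906 and 394043. The fast muscle myosin Myh1 ran from 122450 to 176393 in WT and was at 16691, 133645 and 37421 in DTR-ScxLin tendons, so the groups overlapped. Ctsk, of the osteoclast list, was at 52183 and 59797, whereas Ocstamp of the same list was at 22.6 and 72.4. Ly6a, of the endothelial list, was at 20389 and 19713. Itgax, of the dendritic cell list, was at 609 and 565, and the melanocyte and Schwann cell factor Sox10 at 342 and 285. Cd4, of the lymphoid list, was at 553 and 608, whereas the T cell gene Cd3e of that list was at 54.4 and 57.7. The keratin Krt10 ran from 172 to 65075 in WT and from 178 to 3451 in DTR-ScxLin tendons, and Mmp9, a protease of neutrophils and osteoclasts, from 284 to 1638 and from 564 to 4494, so both overlapped between the groups.

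As a share of each library, the 20 general macrophage genes took 0.363%, 0.288% and 0.305% of normalized counts in WT against 0.340%, 0.320% and 0.303% in DTR-ScxLin tendons, and the 9 dendritic cell genes took 0.00391% to 0.00688% and 0.00337% to 0.00467%. Of these 9, 8 were fitted lower in DTR-ScxLin tendons and 1 higher, with a median log2 fold change of -0.42. At an unadjusted edgeR p under 0.05, 3 (Cd209a, Siglech and Batf3) were lower, where 5.45% of all tested genes were. Of 10 lymphoid genes, 6 were fitted lower and 4 higher, with a median of -0.25. At that p 1 of the 10, the B cell gene Ms4a1, was lower, beside the same 5.45% of all tested genes. In edgeR's test 0 genes of either list passed the adjustment over all genes.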
